A study of Mus musculus with 146 samples.

Results

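The genes described here are 10 members of the PIWI-interacting RNA (piRNA) pathway, out of 52605 gene symbols that the files give for each cell: Piwil2, Mael, Ddx4, Tdrd1, Tdrd9, Tdrd12, Mov10l1, Asz1, Gtsf1 and Pld6. They were chosen by name, and all 10 were found. Their levels were read in 146 Smart-seq2 libraries, each labelled as a single ovarian cell and made from a cell picked by hand from the ovaries of C57/BL6J mouse pups of 1 litter at postnatal day 0.5 (P0.5), when germ cell cysts break up and the first primordial follicles assemble. No cell was treated, and no transgene or mutation was used. All but 1 of the 146 libraries had a Ddx4 level of at least 1 TPM (transcripts per 1000000 transcripts) and were kept. Ddx4, the mouse Vasa helicase, is also the transcript by which the study screened its cDNA for germ cells, while cDNA with the pregranulosa gene Foxl2 was set aside, so the presence of Ddx4 in these cells is part of how they were chosen. Since the labels do not tie a cell to an animal, the cells count as 1 sample, and the values below are descriptions without a test.

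piRNAs are small RNAs that guide PIWI proteins to transcripts of transposable elements in the germ line. In fetal male germ cells their precursors are unwound and cut near the mitochondrial surface, and PIWI proteins, Tudor domain proteins and helicases gather in granules known as intermitochondrial cement, pi-bodies and piP-bodies. Female mouse germ cells contain many of the same proteins, although mouse oocytes also silence transposons through Dicer and endogenous small interfering RNAs.

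Some libraries may not be separate cells. Among the 146 libraries, 7 pairs were near-identical, with a correlation of log2(TPM + 1) over 11972 coding genes between 0.989 and 0.996, where the closest of all other pairs had 0.813. Their reads differed a little more than counting noise, with a chi-square per gene of 1.66 to 4.67 (1 for noise alone), against at least 196.7 in the next 100 pairs. The labels give each library as a cell of its own, and all 14 fell in cluster 2 described below, so counts of cells there may hold up to 7 cells more than once. Values below take each library as a cell. With each pair averaged and counted once, cluster 2 held 86 cells, the same members passed 1.5-fold in every comparison, and values counted once are given beside several results.

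Between 4074810 and 26855273 reads per kept cell were assigned to genes (median 9498860). The 8 germ cell markers, Ddx4 among them, summed to between 1149 and 13770.4 TPM. Besides Ddx4, which the rule fixed, Dazl, Stk31, Sycp3 and Figla reached 1 TPM in 100% of kept cells, Kit in 95.9%, Dppa3 in 89.7% and Tex14 in 87.6%. The pregranulosa markers were nearly absent: their summed level had a median of 0.524 TPM and a highest value of 81.6 TPM, 8 of the 9 had a median of 0, and Foxl2 reached 1 TPM in 5 cells. The 8 stroma markers summed to a median of 1.10 TPM (highest 873 TPM), with 6 of the 8 at a median of 0. The median of their sum was lower in later clusters, at 4.35, 1.09 and 0.479 TPM, with highest values of 334, 873 and 81.5 TPM in clusters 1, 2 and 3. The sum had rho of 0.27 with Tdrd9 and -0.25 with Gtsf1, and its part in the differences between clusters was not tested. The blood or endothelial markers ran higher because of globin RNA, with a median sum of 57.996 TPM and a highest value of 324531 TPM in 1 cell. Globin RNA reached at least 1000 TPM in 29 kept cells. The endothelial markers Cdh5 and Kdr had a median of 0, and Tie1 one of 0.042 TPM. The 3 clusters used below were rebuilt from 20 oocyte and meiosis genes and held 19, 93 and 33 kept cells. None of these genes is a member of the pathway list. They are the genes that the study's results list for its clustering, with Taf4b added. Cluster 1 had the highest level of the meiotic gene Sycp2, cluster 2 that of Sohlh1 and Figla, and cluster 3 that of the zona pellucida gene Zp3. The study made its own clusters after dropping cells at quality control, and those held other numbers of cells. The clusters here were not matched to its cyst, cyst breakdown and follicle states, and are called by number.

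The stretches just before the transcription starts are shown first, so that they can be set beside the levels below. Some pairs of members went together across cells, but the 10 did not vary as 1 block. RefSeq promoter sequences (GRCm38.p6) matched 9 of the 10 members, all but Piwil2. Over the 250 bases before the start, the letters CACGTG, a palindromic E-box of the kind bound by Max and its partners, occurred in 6 of the 9 members (Ddx4, Mael, Mov10l1, Pld6, Tdrd1 and Tdrd9), against 6.02% of 32851 windows of the same length in the table. The window of Asz1, Gtsf1 or Tdrd12 that starts nearest to the annotated gene start did not hold these letters. In Ddx4 the letters lie past the start annotated in GENCODE, which is upstream of the RefSeq one, and the 85 bases before that start hold neither CACGTG nor TCCCGC. The letters TCCCGC, read on both strands, occurred in 2 of the 9 (Ddx4 and Mael), against 16.9% of windows. TAACNG occurred in 1 (Mov10l1; 19.8% of windows), and CNCCTCAG (6.42%), TAATTG (7.17%) and TATAAA (12.4%) in none of the 9. CANNTG, of which CACGTG is one form, was found in 6 of the 9 and in 66.2% of windows. These 7 motifs were searched on both strands after the levels were known, and a match is a description of letters only. Read 5′ to 3′ on the strand of the gene, up to the start annotated in GENCODE or RefSeq, whichever comes first, the stretches of the members that the results turn on are as follows, with CACGTG and TCCCGC in capitals.
Mael, chr1:166238748-166238994, minus strand: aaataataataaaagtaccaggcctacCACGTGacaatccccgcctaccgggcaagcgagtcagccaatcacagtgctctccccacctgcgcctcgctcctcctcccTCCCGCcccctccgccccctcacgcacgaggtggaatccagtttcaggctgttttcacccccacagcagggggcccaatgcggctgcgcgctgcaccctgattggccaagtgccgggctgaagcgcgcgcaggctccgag
Tdrd9, chr12:111971309-111971558, plus strand: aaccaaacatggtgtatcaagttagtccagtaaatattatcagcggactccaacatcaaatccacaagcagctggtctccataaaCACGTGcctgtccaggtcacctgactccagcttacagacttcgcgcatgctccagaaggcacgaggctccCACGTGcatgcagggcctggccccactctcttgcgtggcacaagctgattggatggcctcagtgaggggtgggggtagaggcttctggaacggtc
Tdrd1, chr19:56825959-56826208, plus strand: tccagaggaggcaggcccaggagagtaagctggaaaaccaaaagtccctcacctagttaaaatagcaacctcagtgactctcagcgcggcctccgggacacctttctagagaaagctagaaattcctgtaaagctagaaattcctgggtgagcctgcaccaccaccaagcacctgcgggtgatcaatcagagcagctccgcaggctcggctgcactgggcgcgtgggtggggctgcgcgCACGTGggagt
Pld6, chr11:59787658-59787907, minus strand: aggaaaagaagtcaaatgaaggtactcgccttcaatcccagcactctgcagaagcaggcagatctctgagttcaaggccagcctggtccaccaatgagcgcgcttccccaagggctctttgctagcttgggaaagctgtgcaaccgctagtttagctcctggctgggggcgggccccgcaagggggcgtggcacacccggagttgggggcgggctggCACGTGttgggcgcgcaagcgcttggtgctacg
Asz1, chr6:18109062-18109311, minus strand: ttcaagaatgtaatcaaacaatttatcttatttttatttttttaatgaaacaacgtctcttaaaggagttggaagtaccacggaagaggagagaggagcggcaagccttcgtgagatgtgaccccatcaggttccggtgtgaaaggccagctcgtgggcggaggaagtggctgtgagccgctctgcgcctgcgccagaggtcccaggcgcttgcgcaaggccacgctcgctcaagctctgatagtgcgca
Gtsf1, chr15:103430471-103430677, minus strand: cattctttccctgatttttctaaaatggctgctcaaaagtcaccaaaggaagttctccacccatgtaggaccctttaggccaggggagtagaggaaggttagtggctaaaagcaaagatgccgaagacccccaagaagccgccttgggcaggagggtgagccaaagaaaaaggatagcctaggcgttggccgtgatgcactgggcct
The GC content of these stretches was 64% for Mael, 54.8% for Tdrd9, 57.6% for Tdrd1, 61.6% for Pld6, 52% for Asz1 and 51.7% for Gtsf1, against a median of 52.4% over all 250-base windows. Gtsf1, with 4 CpG dinucleotides in 207 bases, had the fewest of the 6, and Mael, with 18 in 247 bases, the most. The median window held 6.

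RNA of every member was found in these cells, and that of most members in nearly every cell. Levels are in TPM, which is scaled per length of transcript, so that genes can be compared. Gtsf1, a small zinc finger cofactor of PIWI proteins, had the highest mean (1341 TPM), followed by Mael (563 TPM), Asz1 (426 TPM), Ddx4 (213 TPM), Mov10l1 (190.4 TPM), Tdrd9 (182 TPM), Piwil2 (148 TPM), Tdrd1 (76.3 TPM), Pld6 (27.7 TPM) and Tdrd12 (23.02 TPM). Gtsf1 ranked 45th of 11760 coding genes with a mean of at least 1 TPM, Mael 190th and Asz1 275th, whereas Tdrd12 ranked 5215th. Piwil2, Tdrd9 and Mov10l1 reached 1 TPM in all kept cells (100%, exact 95% confidence interval from 97.5%), and Ddx4 did so by the rule that kept them. Gtsf1 did so in 99.3% of cells, Mael in 98.6%, Asz1 in 96.6% and Tdrd1 in 95.9%. Pld6 reached it in 74.5% (66.6 to 81.4%) and Tdrd12 in 100 cells (68.97%, 60.8 to 76.4%). These intervals cover counting error only. All 10 members were at 1 TPM or above in 70 cells, 9 of them in 57 cells, 8 in 16 cells, 7 in 1 cell and 6 in 1 cell. With repeats counted once, 65 cells had all 10 and 55 had 9, the share for Pld6 was 73.2%, and the mean moved to 1390 TPM for Gtsf1 and to 547 TPM for Mael.

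The order of the means was closer in some places than in others. Gtsf1 lay above Mael in 75 of the kept cells (51.7%, 43.3 to 60.1%), and by median Mael (557 TPM) came before Gtsf1 (466 TPM), so that these neighbours cannot be ranked by cell. The neighbours Ddx4 and Mov10l1 (84 cells in that order), Mov10l1 and Tdrd9 (80 cells), Tdrd9 and Piwil2 (77 cells), and Pld6 and Tdrd12 (81 cells) were also within counting error of an even split. Asz1 was above Ddx4 in 77.9% of cells, Piwil2 above Tdrd1 in 80.7%, and Tdrd1 above Pld6 in 85.5%. When reads were instead divided by the length of the longest annotated transcript, Ddx4 (564 on that scale) passed Asz1 (435), and the other 8 members kept their places. The longest transcript of Asz1 is annotated as a retained intron, however, and with the longest protein-coding transcript of each gene Asz1 (529) stayed above Ddx4 (508). The transcript length that the deposited TPM implies differed between these genes. For Asz1 it had a median of 878 nucleotides, where the longest protein-coding transcript in GENCODE has 1736, and it was under 50% of that length in 47.5% of the cells with at least 10 reads of the gene. For Ddx4 it was 2839 of 3012 nucleotides, and in no cell was it under 50%. For Tdrd12 it was 1397 of 3651 nucleotides, and in 71.6% of cells it was under 50%. That share was 17.2% for Piwil2, 15.9% for Tdrd9 and 8.97% for Mov10l1, and 0% for Mael, Tdrd1, Gtsf1 and Pld6.

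Piwil2 encodes MILI, the PIWI protein that carries primary piRNAs in fetal germ cells (chr14:70372477-70429383, minus strand; these and the following coordinates are those of GENCODE M21 on GRCm38, the mm10 build). Its level ran from 3.06 to 842 TPM with a median of 132.5 TPM. By cluster its mean was 91.1, 171 and 116.9 TPM in clusters 1, 2 and 3. The lowest, median and highest cells were at 3.06, 98.7 and 194 TPM in cluster 1, at 28.7, 149 and 842 TPM in cluster 2, and at 27.9, 96.8 and 324 TPM in cluster 3. The ranges overlapped widely, and only 2 cells, both of cluster 1, lay below 10 TPM.

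Gtsf1 (chr15:103402405-103430470, minus strand) differed most of the members between clusters 1 and 3. Its mean was 143.5 TPM in cluster 1, 941 TPM in cluster 2 and 3159 TPM in cluster 3. In cluster 1 the cells ran from 2.45 to 353 TPM with a median of 130 TPM, and in cluster 3 from 219.8 to 6447 TPM with a median of 3362 TPM. Cluster 2 overlapped both, from 0 to 6221 TPM with a median of 429 TPM and quartiles of 201 and 1251 TPM. Of the 11760 coding genes, 219 had a ratio of cluster 2 over cluster 1 as high as that of Gtsf1 or higher, itself included, and 377 a ratio of cluster 3 over cluster 2. Gtsf1 made up a median of 6.59% of the summed TPM of the 10 members in cluster 1, 17.1% in cluster 2 and 77.4% in cluster 3. That sum had medians of 2367, 2939 and 4339 TPM, so most of the pathway's RNA by this measure was Gtsf1 in cluster 3 and other members in cluster 1.

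Among the helicases, Ddx4 (chr13:112598333-112652475, minus strand) was lower in later clusters, with means of 318, 223 and 125 TPM. Its cells ran from 114.1 to 531 TPM in cluster 1, from 18.3 to 542 TPM in cluster 2 and from 7.49 to 499 TPM in cluster 3, with medians of 339, 201 and 98.2 TPM. Mov10l1 (chr15:88982909-89055152, plus strand), the helicase that unwinds piRNA precursors, stood at means of 211, 217 and 103.4 TPM. It had the smallest coefficient of variation over cells of the members (0.586), and no kept cell was below 10 TPM. The standard deviation of log2 values was smaller for Piwil2 (0.98) than for Mov10l1 (1.01). Tdrd9 (chr12:111971559-112068854, plus strand), a helicase with a Tudor domain that acts with MIWI2, was highest in cluster 2 (means of 117.75, 223 and 103.8 TPM). Tdrd12 (chr7:35469098-35537745, minus strand), which also joins helicase and Tudor domains, had the lowest mean over all kept cells, with cluster means of 39.1, 23.03 and 13.7 TPM, although Pld6 and Tdrd1 were below it in cluster 1. It reached 1 TPM in 17 of 19 cells of cluster 1 (89.5%), 62 of 93 of cluster 2 (66.7%) and 21 of 33 of cluster 3 (63.6%). After 1000000 reads were drawn from each cell, a read of Tdrd12 remained in 89.5%, 68.8% and 69.7% of the cells of clusters 1, 2 and 3.

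Tdrd1 (chr19:56826209-56870012, plus strand), the Tudor scaffold that binds methylated arginines of MILI, was low in cluster 1. In TPM it was even between clusters 2 and 3, while per spike-in its log2 ratio of cluster 3 over cluster 2 was 0.93. Its means were 15.9, 83.5 and 90.9 TPM. The cells of cluster 1 lay between 0 and 53.3 TPM with a median of 11.9 TPM, and those of cluster 3 between 30.3 and 172 TPM with a median of 85.6 TPM. Of the 10 kept cells below 10 TPM, 8 belonged to cluster 1, 2 to cluster 2 and none to cluster 3.

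Asz1 and Pld6 encode proteins of the mitochondrial outer surface. Asz1 (chr6:18050964-18109061, minus strand), known as GASZ, had means of 636, 480 and 151 TPM, with medians of 626, 478 and 138.7 TPM in clusters 1, 2 and 3. Pld6 (chr11:59783897-59787645, minus strand), or MitoPLD, the phospholipase linked to the cutting of piRNA precursors, went the other way at the first step, with means of 8.29, 30.7 and 30.5 TPM. It reached 1 TPM in 7 of 19 cells of cluster 1 (36.8%, 16.3 to 61.6%), 73 of 93 of cluster 2 (78.5%, 68.8 to 86.3%) and 28 of 33 of cluster 3 (84.8%, 68.1 to 94.9%). With 1000000 reads per cell, 36.8%, 80.6% and 90.9% of cells had a read of it. Within the near-identical pairs of libraries, all in cluster 2, Pld6 differed by a median of 0.41 on the log2 scale (largest 0.58). The library with the later number was higher in each pair. The medians of the other members lay between 0.030 and 0.052. With repeats counted once, the mean of Pld6 in cluster 2 was 29.8 TPM and its share 76.7%. One cell of cluster 3, cell 10, held 289 TPM, or 7.20% of all Pld6 TPM. Without it the log2 ratio of cluster 3 over cluster 1 for Pld6 was 1.33 in place of 1.76. The ratio of cluster 3 over cluster 2 was then -0.44 in place of -0.01. Cell 10 also had the lowest Ddx4 among kept cells (7.49 TPM from 157 reads), next to 18.3 TPM in the cell above it and 0 in the cell left out.

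Mael (chr1:166201201-166238747, minus strand), a component of the piP-bodies that also hold MIWI2 and TDRD9, had means of 706, 662 and 201 TPM. Its cells lay between 192 and 1402 TPM in cluster 1, between 1.00 and 1735 TPM in cluster 2 and between 0.0925 and 596 TPM in cluster 3. Mael and Asz1 were both lower at the same step, and a few cells held almost no transcript of one or the other. Below 10 TPM were 7 cells for Mael, 8 for Asz1 and 5 for Gtsf1, in 15 cells altogether, and 5 of the 15 were low for a pair of these genes. Cell 12 had 0.472 TPM of Mael (4 reads) and 0.502 TPM of Asz1 (5 reads) beside 499 TPM of Ddx4 from 9114 reads. Cell 41 had 0.118 TPM of Asz1 from 1 read, with Mael at 1197 TPM. Cell 44 had 1.502 TPM of Gtsf1 from 6 reads, with Mael at 739 TPM and Asz1 at 649 TPM. Cell 12 reached 1 TPM for 6 of the 10 members, cell 41 for 8 and cell 44 for all 10. The 7 cells low for Mael had 10.2 to 24.3% of reads on mitochondrial genes, where the median of kept cells was 6.28%. Their assigned reads, 5182273 to 8481642, were also fewer than the median of 9498860. The mitochondrial share ran from 6.23 to 21.1% in the cells low for Asz1, and from 3.62 to 21.1% in those low for Gtsf1. How far library quality had a part, and how often a transcript of a single cell is lost before amplification, was not tested.

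**Figure D1:**
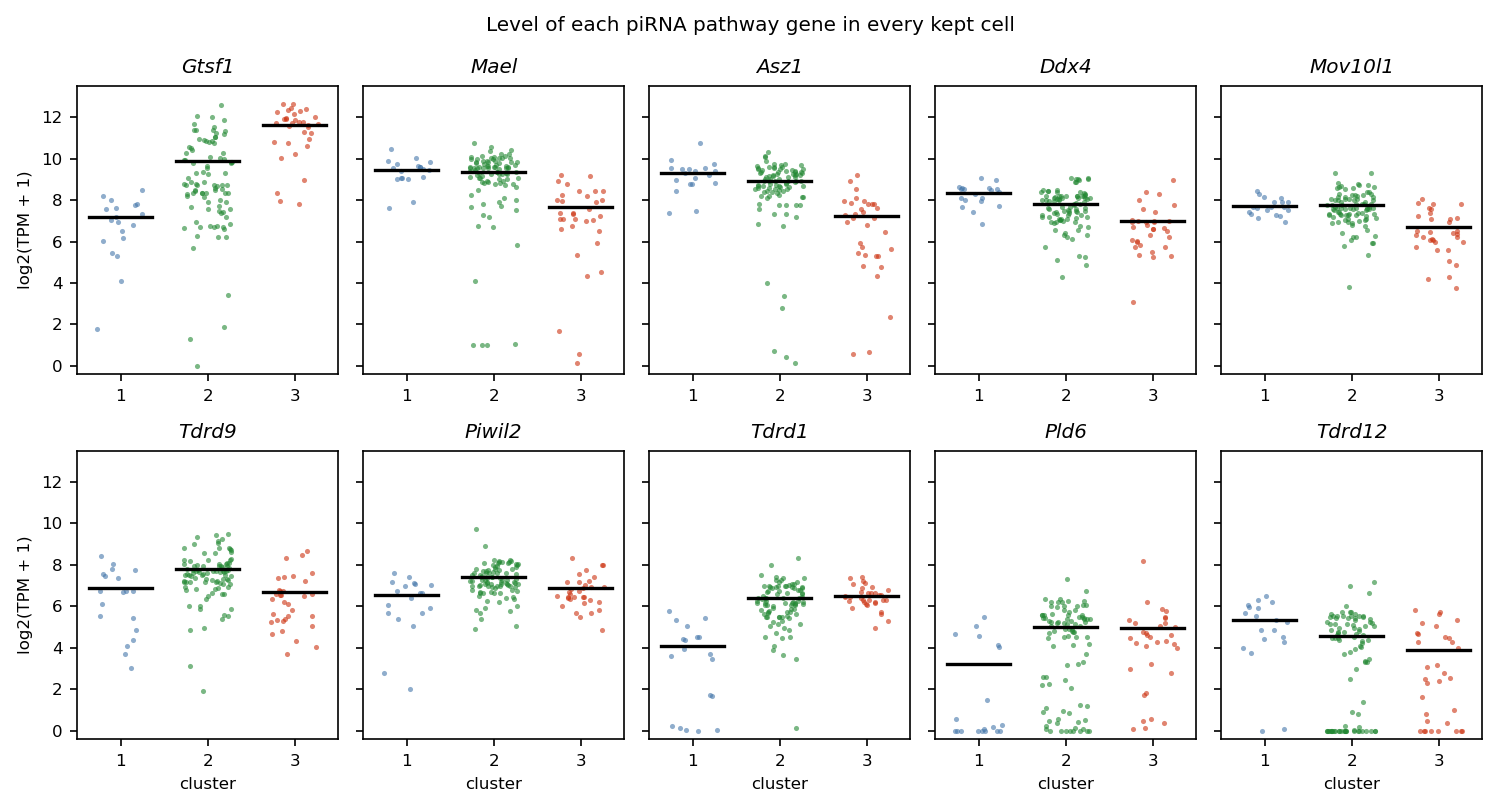
Level of each member in each kept cell, as log2(TPM + 1), by rebuilt cluster (19, 93 and 33 cells), with genes in order of mean level. Points are cells and bars are the log2 of the cluster mean plus 1. Gtsf1 is lowest in cluster 1 (mean 143.5 TPM) and highest in cluster 3 (3159 TPM), while Mael and Asz1 are lowest in cluster 3 (201 and 151 TPM) and Pld6 and Tdrd12 have many cells at or near 0.

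The next question was which members differed between the clusters, which follow the loss of meiotic transcripts and the gain of oocyte transcripts. A log2 ratio here is that of mean TPM after a pseudocount of 1 TPM, and a member is counted as different when it is at least 1.5-fold apart (0.58 on the log2 scale). The 3 comparisons share clusters, so they are not independent of each other. From cluster 1 to cluster 2, 5 members were higher: Gtsf1 (2.70), Tdrd1 (2.32), Pld6 (1.77), Tdrd9 (0.92) and Piwil2 (0.90). Tdrd12 was lower (-0.74), and Ddx4 (-0.51), Asz1 (-0.40), Mael (-0.09) and Mov10l1 (0.04) were within 1.5-fold. Of all 11760 coding genes, 24.9% were higher and 21% lower by the same rule. The median of the members was 0.47, and that of all coding genes 0.01. Where the clusters were instead made from the 2000 most variable genes, which put 62, 40 and 43 cells in them, Gtsf1 (2.22) and Tdrd1 (0.97) were still higher at this step, while Pld6 (0.48), Piwil2 (0.09) and Tdrd9 (-0.22) were not, and 17.9% of coding genes were higher. Per spike-in, Tdrd9 (0.55) was within 1.5-fold and Ddx4 (-0.62) and Asz1 (-0.63) were lower besides Tdrd12 (-0.91), where 20.95% of coding genes were higher and 28.3% lower. With Ward clusters, Tdrd12 (-0.52) was within 1.5-fold. With medians Pld6 was at 4.69, its median in cluster 1 being 0.153 TPM. With repeats counted once, Gtsf1 was at 2.77, Mael at -0.13 and Pld6 at 1.73.

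From cluster 2 to cluster 3 the picture turned. Only Gtsf1 was higher (1.75), where 16.7% of coding genes were. Which of its steps was the larger depended on the average: with medians they were 1.72 and 2.97 and with means of log2 values 2.11 and 2.49, in place of 2.70 and 1.75. Mael (-1.71), Asz1 (-1.67), Tdrd9 (-1.10), Mov10l1 (-1.06), Ddx4 (-0.83) and Tdrd12 (-0.70) were lower, 6 of 10 members against 30.4% of coding genes. Tdrd1 (0.12), Pld6 (-0.01) and Piwil2 (-0.55) stayed within 1.5-fold. Pld6 was at -0.44 without cell 10 and at -0.41 with medians. Piwil2 was closest to the limit. Left out singly, any of cells 10, 12, 84 and 92 took Piwil2 past it, to -0.63 without cell 10. It also passed with medians (-0.62), with a Ddx4 limit of 10 TPM (-0.63) and in cells under 1000 TPM of globin (-0.63), which made 7 members lower, where 16.01%, 30.4% and 30.8% of coding genes were. With clusters from variable genes 5 members were lower (28.6% of coding genes), since Tdrd9 (-0.39) was within 1.5-fold. With repeats counted once, Gtsf1 was at 1.68 and Piwil2 at -0.56. The median was -0.77 for the members and -0.22 for all coding genes. After division by the summed TPM of the spike-ins, the median of all coding genes moved to 0.59. This scale follows the amount of RNA per cell. The median of the members moved to 0.029, and Tdrd12 turned to 0.37. No member was lower by 1.5-fold, where 9.72% of coding genes were. Gtsf1 (2.61), Tdrd1 (0.93) and Pld6 (0.67) were higher, 3 members where 50.2% of coding genes were. Measured against the median of all coding genes, the members lay at -0.55 in TPM and at -0.56 per spike-in. Mael was at -1.50 and -1.17 on these respective scales, Asz1 at -1.45 and -1.15, Ddx4 at -0.62 and -0.76, and Gtsf1 at 1.96 and 2.02. The ratios per spike-in themselves were -0.58 for Mael, -0.56 for Asz1 and -0.17 for Ddx4, all within 1.5-fold, with Mael at its edge. The lower share of these transcripts in cluster 3 was thus measured together with a larger RNA content by spike-ins.

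Over both steps, from cluster 1 to cluster 3, Gtsf1 (4.45), Tdrd1 (2.44) and Pld6 (1.76) were higher, against 27.4% of coding genes. Asz1 (-2.07), Mael (-1.81), Tdrd12 (-1.44), Ddx4 (-1.34) and Mov10l1 (-1.02) were lower, against 36% of coding genes. Piwil2 (0.36) and Tdrd9 (-0.18) ended close to where they began. Of the 10 members, 3 were thus higher, near the share of all coding genes, and 5 were lower. The median was -0.60 for the members and -0.17 for all coding genes. Per spike-in, Asz1 (-1.19), Mael (-0.92) and Ddx4 (-0.79) were still lower, Tdrd12 (-0.55) and Mov10l1 (-0.46) were not, and Piwil2 (0.87) was higher, where 19.5% of coding genes were lower and 45.4% higher. With clusters from variable genes, Tdrd1 (0.92) was still higher from cluster 1 to cluster 3, Pld6 (0.54) was not, and Tdrd9 (-0.61) was lower. The share of reads on mitochondrial genes differed along with the clusters, with medians of 5.22%, 6.20% and 7.74%, as did the number of genes with a read, with medians of 12424, 12207 and 14506. Their part in the ratios was not tested.

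**Figure D2:**
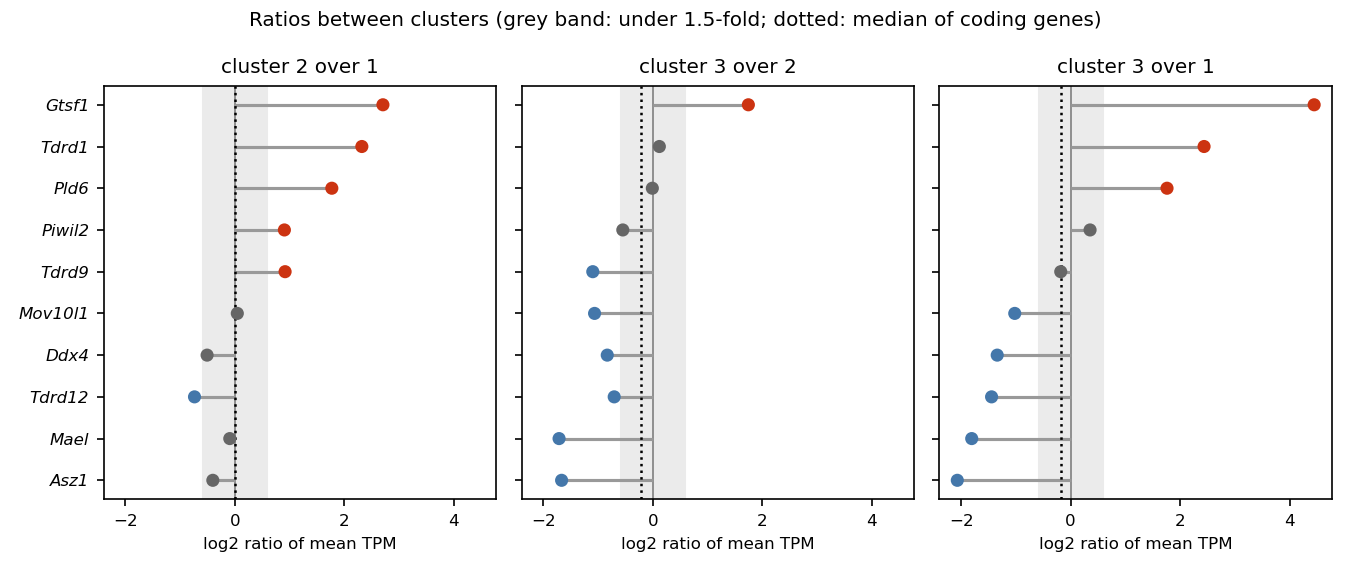
Log2 ratio of mean TPM (pseudocount of 1 TPM) of each member for the 3 comparisons of clusters. Red and blue points are at least 1.5-fold higher and lower, the grey band holds ratios under 1.5-fold and the dotted line is the median of 11760 coding genes. Gtsf1 is on the higher side in each panel, and Asz1 and Mael are the lowest members in the middle and right panels.

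The same members were followed along the first component of the 20 genes behind the clusters, which holds 36.4% of their variance, in 5 bins of 29 cells. Gtsf1 was higher in each bin than in the one before, at 143.98, 328, 946, 1846 and 3442 TPM. Over all kept cells its Spearman's rho with the component was 0.80, and within clusters 1, 2 and 3 it was -0.26, 0.71 and 0.27. Tdrd1 had means of 32.8, 70.1, 86.4, 103.8 and 88.7 TPM (rho 0.50). Asz1 went from 614 TPM in the first bin to 556, 518, 272 and 169 TPM (rho -0.63), and Mael from 809 to 793, 617, 371 and 224 TPM (rho -0.61). The largest step of both genes was that from bin 3 to bin 4, where most cells belonged to cluster 2, and their rho was negative within cluster 2 alone. Within clusters 1, 2 and 3 it was 0.21, -0.47 and 0.26 for Asz1 and 0.12, -0.51 and 0.37 for Mael. Ddx4 stood at 304 TPM in the first bin and 109.6 TPM in the last (rho -0.50). Mov10l1 (rho -0.41) was at 226, 200, 239, 189 and 97.1 TPM and thus lowest in the last bin, as was Piwil2 (rho -0.11), at 130.9, 173, 165, 172 and 100.7 TPM. Tdrd9 was highest in the second bin at 254 TPM and lowest in the last at 89.5 TPM. Tdrd12 had rho of -0.35 and Pld6 of 0.16. Within clusters 1, 2 and 3, rho was -0.09, -0.35 and 0.31 for Tdrd12, and -0.01, -0.19 and -0.12 for Ddx4. It was -0.04, -0.12 and -0.13 for Mov10l1, and 0.40, 0.29 and 0.20 for Tdrd1. For Tdrd9 it was 0.26, -0.39 and -0.14, for Piwil2 0.20, -0.18 and -0.20, and for Pld6 0.20, -0.001 and 0.08. Of the 10 members, 6 were lowest in the last bin, as were 33.3% of coding genes, and with 3 bins 7 were (Tdrd12 as well), as were 45.7% of coding genes. The cells share their preparation, and the component itself had rho of 0.29 with the mitochondrial share, 0.24 with the number of reads and 0.33 with the number of genes with a read. Among the members, the mitochondrial share went with lower Ddx4 (rho -0.53), Mael (-0.52), Mov10l1 (-0.38) and Asz1 (-0.36), and the number of reads with lower Tdrd9 (-0.40) and higher Gtsf1 (0.30). Their part in the pattern was not tested.

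**Figure D3:**
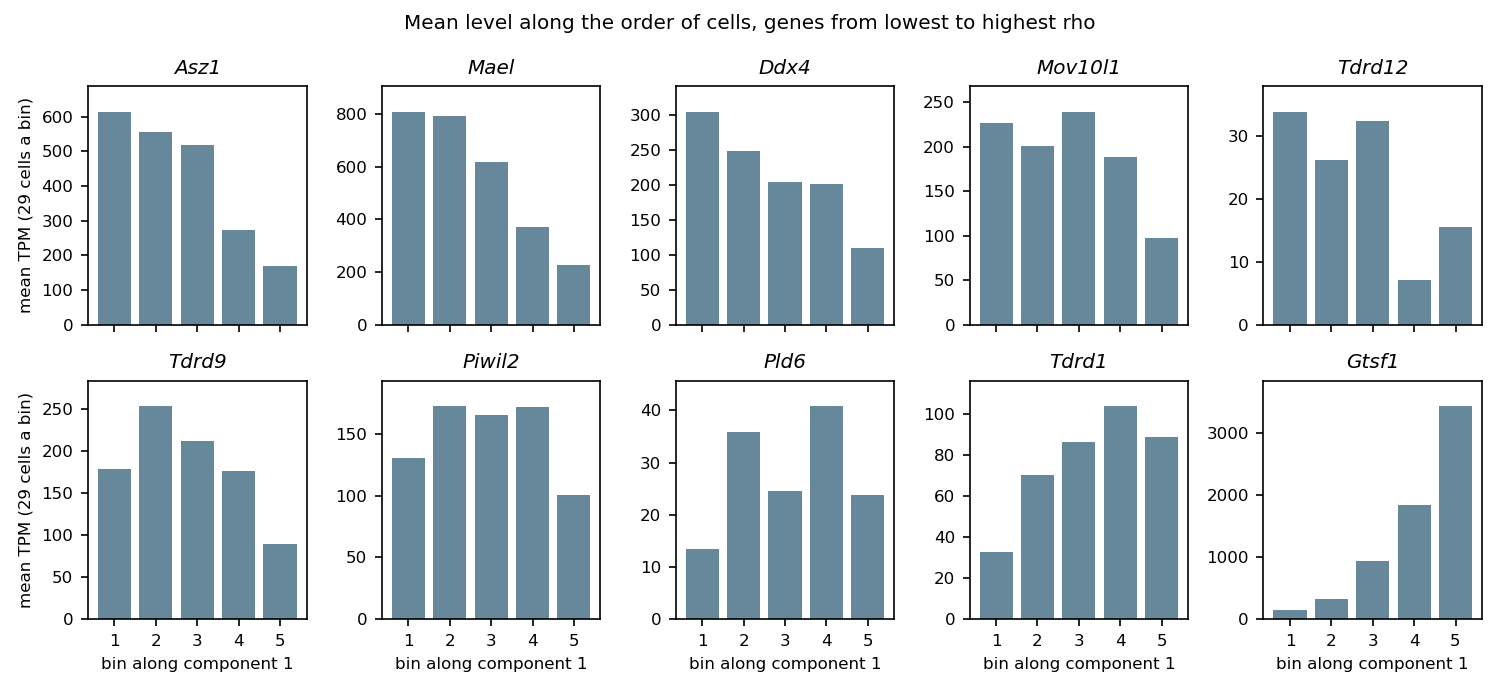
Mean TPM of each member in 5 bins of 29 cells along that first component, each panel on its own axis from 0, with genes in order of Spearman's rho with the component. Asz1 and Mael go from their highest to their lowest mean between bins 1 and 5 (614 to 169 TPM and 809 to 224 TPM), and Gtsf1 from 143.98 to 3442 TPM.

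Across the kept cells, the members did not vary as 1 block. Of the 45 pairs, 29 had a positive rho and 16 a negative one, with a median of 0.11, and with repeats counted once 29 were positive and the largest move of a rho was 0.035. The highest were Mael with Asz1 (0.57), Mael with Mov10l1 (0.53), Mael with Ddx4 (0.52) and Piwil2 with Tdrd9 (0.50). Gtsf1 was the member that ran against the rest, with negative values for 7 of its 9 pairs, lowest with Asz1 (-0.51) and Mael (-0.50), and its highest value with Tdrd1 (0.33). These values did not hold in every cluster: within clusters 1, 2 and 3, Gtsf1 had rho of -0.29, -0.32 and 0.02 with Asz1, of -0.14, -0.39 and 0.04 with Mael, and of -0.53, 0.16 and -0.30 with Tdrd1. Within clusters, Mael and Asz1 had rho of -0.32, 0.42 and 0.50, and Piwil2 and Tdrd9 of 0.49, 0.45 and 0.28, in clusters 1, 2 and 3. The medians over pairs within clusters were 0.08, 0.08 and 0.12. After division by spike-ins, which all genes of a cell then share, 41 of the 45 pairs were positive with a median of 0.36, and Gtsf1 with Asz1 (-0.18) remained the lowest. Tdrd12 and Pld6, the members found in the fewest cells, were both at 1 TPM or above in 74 cells, Tdrd12 alone in 26, Pld6 alone in 34 and neither in 11. In cluster 1, none of the 19 cells had Pld6 without Tdrd12, and 10 had Tdrd12 without Pld6. Tdrd12 was at 1 TPM or above in 17 of these 19 cells, so few could have held Pld6 alone. The members whose upstream stretch holds CACGTG were found on both sides of these patterns, Mael and Mov10l1 among those lower in cluster 3 and Tdrd1 and Pld6 among those higher than in cluster 1.

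**Figure D4:**
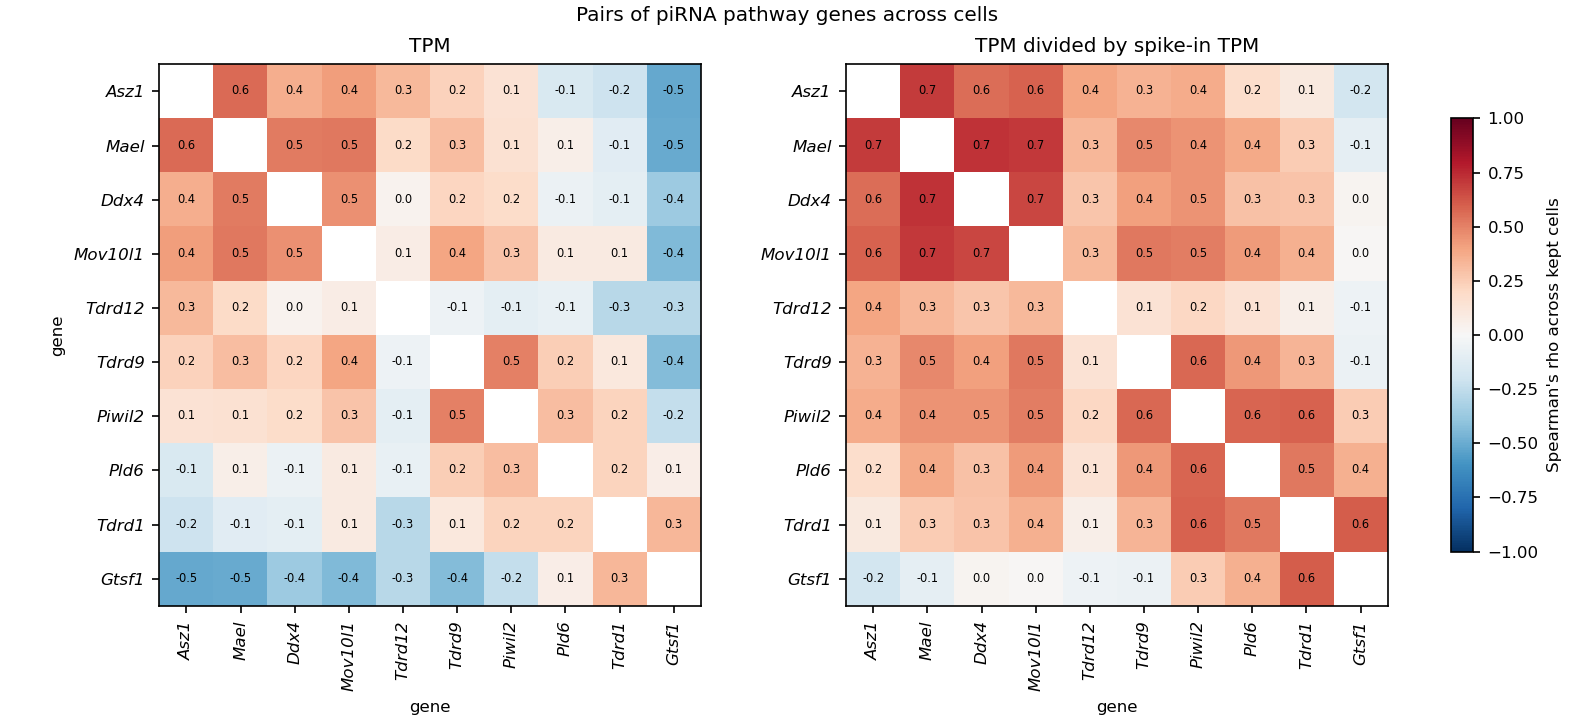
Spearman's rho across the kept cells for each pair of members, from TPM on the left and from TPM relative to spike-ins on the right, with genes in order of their rho with the first component. On the left, the highest values are those of Mael with Asz1, Mov10l1 and Ddx4 (0.57, 0.53 and 0.52) and the lowest is that of Gtsf1 with Asz1 (-0.51), which is also the lowest on the right (-0.18).

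Outside the list, the gene most like each member was looked for among 7457 coding genes with a mean of at least 10 TPM. Gtsf1 was most like Dppa3 (rho 0.83), a maternal factor also known as Stella, whose mean was 2.27 TPM in cluster 1, 534 TPM in cluster 2 and 1711 TPM in cluster 3. Mael was most like Cct7 (0.78) and Ddx4 like Tcp1 (0.63), both subunits of the cytosolic chaperonin. Asz1 was most like Spata22 (0.71), a gene of meiotic recombination that went from 123.5 TPM in cluster 1 to 5.20 TPM in cluster 3. Tdrd1 was most like the receptor gene Kit (0.58), Mov10l1 like the proteasome gene Psmd2 (0.58), Tdrd9 like Adad2 (0.52), Pld6 like Hsdl1 (0.47), Piwil2 like the mitochondrial protease gene Lonp1 (0.45) and Tdrd12 like the kinetochore gene Zwint (0.41). With repeats counted once, the closest gene was Kdm1b for Tdrd1 (0.59) and Clns1a for Tdrd12 (0.42), and it did not change for the other 8 members. The mean z-score of the 10 members was most like Ctsd (0.69), Hspa9 (0.62), Pkm (0.62), Pigs (0.62) and P4hb (0.60), and most opposite to Ybx2 (-0.42), Rpl36 (-0.40), mt-Nd2 (-0.39), Dpf3 (-0.39) and Rps15 (-0.38). The score itself had rho of -0.35 with the mitochondrial share of reads.

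A longer list of 26 other piRNA factors places the 10 members in their pathway. Of these, 21 had a mean of at least 1 TPM. Tdrd6, Spocd1 and Nanos2 lay below it, Dnmt3l was listed at 0 in all kept cells, and Tdrd15 was not matched by its symbol. The other PIWI genes were low: Piwil4, which encodes MIWI2, had a mean of 10.6 TPM with at least 1 TPM in 49 cells, and Piwil1, which encodes MIWI, 3.87 TPM with 40 cells, so Piwil2 was the main PIWI gene at 148 TPM. The immunophilin gene Fkbp6 (659.6 TPM), Tex15 (299.8 TPM), Stk31 (193 TPM), the Tudor gene Rnf17 (175 TPM) and Tdrkh (163 TPM), which anchors PIWI proteins at mitochondria, were the highest of the list. From cluster 1 to cluster 3, 3 of the 21 were higher and 11 lower by 1.5-fold, with a median of -0.67, beside the 27.4% and 36% of all coding genes. The 3 higher ones were Exd1 (2.37), Pnldc1 (0.72), the trimmer of piRNA ends, and Tdrd5 (0.72). The lowest ratios were those of Btbd18 (-3.73), a regulator of piRNA precursor transcription, Tex19.1 (-2.87) and Stk31 (-2.72). Tdrkh (-2.23), Gpat2 (-2.14) and Piwil4 (-1.96) were lower as well. From cluster 1 to cluster 2 the list had 4 higher and 7 lower (24.9% and 21% of coding genes), and from cluster 2 to cluster 3 it had 2 higher and 11 lower (16.7% and 30.4%).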

How the data were processed

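RNA was measured by Smart-seq2 in 146 libraries, each labelled as a single ovarian cell. Per the labels and the study's methods, the authors quantified reads with Salmon on mm10 with spike-in sequences, and deposited, for every symbol in each cell, a TPM value and an estimated count. The deposited TPM of a cell include mitochondrial genes and spike-ins, and the estimated counts were not normalized by the authors. The deposited lengths of the members were not used, since several lay below the shortest annotated transcript; lengths were taken from the ratio of estimated count to TPM, scaled by genes with 1 transcript. Libraries were compared pairwise over coding genes, and 7 pairs with a correlation above 0.95 were averaged and counted once in an alternative chosen after seeing the data. No column was left out for lack of a sample. The members, lists and motifs were chosen with earlier results of these data known.

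Symbols were matched to GENCODE M21 (28006), RefSeq symbols (35) and RefSeq synonyms (269), giving 19780 coding genes, and 24295 symbols had no match. Clusters were rebuilt on all 146 cells in Seurat 5.3.0 (R 4.3.3) from 20 feature genes (10 components, 20 neighbours, resolution 0.2), numbered along the first component. No doublet caller was run, since cells were picked singly. Python 3.11.15 (NumPy 2.4.6, pandas 2.3.3, SciPy 1.17.1, matplotlib 3.10.9) gave means, log2 ratios of means (pseudocount of 1 TPM) over coding genes with a mean of at least 1 TPM, shares with their 95% intervals (Clopper-Pearson, exact), and rho by Spearman without p. Ratios were tested on simulated data. All cells are 1 sample, so no test over cells was made. The genes named are the 10 members, listed pathway genes, the 5 genes most and least like the mean z-score of the members and the gene most like each member. Cells singled out were chosen after their values were seen. Alternatives were another Ddx4 limit, other detection rules, CPM, spike-in scaling, other averages and pseudocounts, other clusters and orders, and each cell left out.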

Additional observations from a re-analysis of the deposited data

Results flagged for a closer look

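The cell left out for its Ddx4 level of 0, cell 29, had 57 reads of Tdrd9 (24.5 TPM), above the limit of 3 reads that a count of 0 allows. Of the other 9 members it had 1 read of Tdrd1 and none of the rest. Its stroma markers summed to 249 TPM, its pregranulosa markers to 89.8 TPM and its germ cell markers to 6.18 TPM. This is a signal in a library left out of the comparisons of the members, although it took part in building the clusters and entered the setting without a Ddx4 limit. Its source was not tested.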

How the results depend on the processing

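Without the Ddx4 limit, 146 cells were kept in place of all but 1. Per spike-in, members lower by 1.5-fold numbered 3 from cluster 1 to 2 (1 in TPM; 28.3% of coding genes per spike-in), 0 from 2 to 3 (6; 9.72%) and 3 from 1 to 3 (5; 19.5%), those higher from 2 to 3 numbered 3 (1; 50.2%), the median of the members from 2 to 3 changed sign to 0.029, Tdrd12 at that step changed to 0.37, and the median rho of pairs, added after the data were seen, was 0.36. From cluster 1 to 2, the members lower numbered 3 with means of log2 values (27.1% of coding genes), 2 with medians (21.7%) and 0 with Ward clusters (20.5%). With clusters from 2000 variable genes (62, 40 and 43 cells) the members higher at that step numbered 2 (17.9%), and Tdrd9 changed sign to -0.22. The calls of Gtsf1 in all 3 comparisons, of Tdrd1 over cluster 1, and of Asz1, Mael and Ddx4 from cluster 1 to 3 held under each of the 14 settings, 4 of them added after the data were seen: without globin, mitochondrial genes and spike-ins, in cells under 1000 TPM of globin, and with the 7 near-identical pairs counted once, without and with new clusters (19, 87 and 32 cells), which changed no call. With 1 cell left out, Piwil2 from cluster 2 to 3 passed 1.5-fold without any of cells 10, 12, 84 and 92 (down to -0.63), and no other call changed. It also passed with medians (-0.62), a Ddx4 limit of 10 TPM (-0.63) and under 1000 TPM of globin (-0.63). Calls gained elsewhere include, from cluster 1 to 2, Ddx4 per spike-in (-0.62), with means of log2 values (-0.68) and with medians (-0.75). At the same step they include Asz1 per spike-in (-0.63) and with means of log2 values (-0.73). From 2 to 3 they include Tdrd1 (0.93) and Pld6 (0.67) per spike-in, and from 1 to 3, Piwil2 with means of log2 values (0.61). Lone cells, not animals, limit each value, and the depth of the shallowest kept cell was 4074810 reads. No paired analysis was possible because all cells form 1 group.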

Other observations

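The 13 listed small RNA factors outside the piRNA pathway all had a mean of at least 1 TPM. From cluster 1 to cluster 3, Tarbp2 (1.02) and Ago1 (0.76) were higher, and Xpo5 (-2.33), Mov10 (-2.0), Prkra (-1.29) and Dgcr8 (-0.93) were lower by 1.5-fold, 2 and 4 of 13, with a median of -0.04, beside 27.4% and 36% of all coding genes. Dicer1, which makes microRNAs and endogenous small interfering RNAs, was nearly level, with 41.9, 49.2 and 40.6 TPM in clusters 1, 2 and 3 (-0.04 from the first to the last), and reached 1 TPM in 97.2% of cells. Drosha had means of 55.9, 56.7 and 64.4 TPM. Among the Argonaute genes Ago3 had the highest mean (73.7 TPM, at 1 TPM or above in 86.2% of cells). Ago2 had a mean of 3.08 TPM over the kept cells and reached 1 TPM in 50 of them. Mov10, a paralogue of the member Mov10l1, had means of 52.6, 54.6 and 12.4 TPM, and Mov10l1 had 211, 217 and 103.4 TPM. A difference between these lists was not tested.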
